A study of Mus musculus with 12 samples.

Results

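The comparison described here set mouse embryonic stem cells (mESCs) expressing tShh-Vp64 against mESCs expressing eGFP on arrays for H3K27me3, the trimethylation of histone H3 at lysine 27. tShh-Vp64 is a transcription activator-like effector (TALE), a DNA-binding protein assembled to recognise a chosen site, here at the Shh promoter, and fused to the acidic activator Vp64. Both populations were 46c ESCs, a mouse line, and both tShh-Vp64 arrays and both eGFP arrays (R1 and R2 of each) were chosen by their titles, which made 4 of the 12 arrays of the series. All 4 lay on 1 slide, which also held 2 arrays each of ESCs with tSBE6-Vp64 and tSBE2-Vp64, whose TALEs bind Shh enhancers. Per the growth protocol the cells were transfected by lipofection; the study's methods describe sorting by an eGFP tag carried on the TALE plasmids, and whether the cells on these arrays were sorted is not given in the labels. Native chromatin, cut with micrococcal nuclease, was immunoprecipitated for H3K27me3 and hybridised together with input DNA. The titles give R1 and R2 of eGFP, and likewise of tShh-Vp64, the same biological replicate number, 2, so they were treated as 2 arrays of 1 sample; the tSBE6-Vp64 titles give none, and its arrays were treated alike. Thus no difference at a single window has a replicate check.

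H3K27me3 is laid down by Polycomb repressive complex 2 and marks promoters of developmental genes that are silent in ESCs, often over broad blocks around CpG-rich sequence. Shh encodes the secreted ligand Sonic hedgehog, which patterns the ventral neural tube and the limb; it is silent in ESCs and is controlled by enhancers spread over the large gene-poor interval upstream of it. Recruitment of an activator to such a promoter is a way to switch the gene on without its enhancers, and the question addressed by these arrays is what happens to the repressive mark at Shh when this is done.

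The Shh gene, transcribed from the minus strand, spans chr5:28783355-28793641 in mm9. The first sequence shown is the stretch of 250 bases just upstream of its annotated transcription start (chr5:28793642-28793891, minus strand, mm9 reference), shown because tShh-Vp64 was directed to this promoter; the exact TALE site is not shown. CpG dinucleotides are in capitals. It holds 3 CpGs, against a median of 12 (range 1 to 40) over the same stretch of the 85 tiled promoters, of which 95.3% hold at least as many. The letters GGGCGG, a GC box, do not occur in it on either strand, whereas 48.2% of the tiled promoters hold at least 1.

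Shh promoter: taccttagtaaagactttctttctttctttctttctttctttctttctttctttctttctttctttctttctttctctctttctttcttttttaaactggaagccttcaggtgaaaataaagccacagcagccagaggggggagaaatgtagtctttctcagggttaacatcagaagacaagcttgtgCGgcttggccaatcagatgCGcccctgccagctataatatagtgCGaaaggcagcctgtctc

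Around this start the array carried 130 probes of 60 bases within 5 kb on either side. The following are the genomic sequences (plus strand, CpGs in capitals) of the 3 probes with the lowest and the 3 with the highest tShh-Vp64 minus eGFP difference, among the 62 probes of the window whose arrays did not overlap and that were well above background on all 4 arrays in both dyes. They are shown because they bracket the measurements on which the Shh result rests.

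Low 1, chr5:28795201-28795260, 1590 bases upstream of the start: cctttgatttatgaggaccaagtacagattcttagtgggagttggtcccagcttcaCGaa

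Low 2, chr5:28794901-28794960, 1290 bases upstream: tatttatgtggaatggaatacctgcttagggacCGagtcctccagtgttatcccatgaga

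Low 3, chr5:28793146-28793205, 465 bases downstream, in the coding part of exon 1: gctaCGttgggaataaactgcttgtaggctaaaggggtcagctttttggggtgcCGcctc

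High 1, chr5:28788886-28788945, 4725 bases downstream, in intron 1: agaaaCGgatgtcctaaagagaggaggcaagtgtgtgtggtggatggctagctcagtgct

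High 2, chr5:28796351-28796410, 2740 bases upstream: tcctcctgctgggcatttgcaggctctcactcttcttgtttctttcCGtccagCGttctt

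High 3, chr5:28796291-28796350, 2680 bases upstream: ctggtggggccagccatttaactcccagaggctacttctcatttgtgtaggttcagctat

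Values below are log2 ratios of the 2 dyes with the median of each array set to 0, written as Cy5 over Cy3. This is the direction of the ratios the authors deposited, with which the arrays' own values correlated across probes at 0.925 (eGFP) and 0.944 (tShh-Vp64). The labels and the heading of the deposited table instead give Cy3 to the ChIP DNA and Cy5 to the input; if the dye labels hold, every sign in this text is the opposite. In the direction used, the populations looked like ESCs at the promoters chosen to check this. The windows at Pou5f1, Nanog, Fgf4, Actb and Gapdh lay from -0.70 to -0.10 on the eGFP arrays and from -0.78 to -0.25 on the tShh-Vp64 arrays, and those of the Hoxd genes, Six3 and En2 from 1.34 to 2.55 and from 1.36 to 2.20. Of the 48316 probes outside control spots, 85.99% to 89.6% were well above background in Cy5 on the 4 arrays. In Cy3 this share was 91.4% to 92.8% on 3 of them and 78.3% on tShh-Vp64 R1.

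At the Shh promoter the tShh-Vp64 arrays were lower than the eGFP arrays. The window within 5 kb of the start averaged 1.45 and 1.08 on eGFP R1 and R2 and 0.92 and 0.88 on tShh-Vp64 R1 and R2. Both tShh-Vp64 arrays thus lay below both eGFP arrays, and the eGFP arrays were further apart (SD 0.255) than the tShh-Vp64 arrays (SD 0.03). The difference of the means was -0.36, a ratio of 0.778, and the 4 pairs of single arrays ranged from -0.56 to -0.16. eGFP R1 carried much of it, since without that array the difference was -0.18. tSBE6-Vp64 ESCs had 0.95 and 0.99 and tSBE2-Vp64 ESCs 1.06 and 1.07 in the same window. Both enhancer-targeted populations thus also lay below eGFP (-0.29 and -0.20, with the same eGFP arrays as control), and tShh-Vp64 lay -0.11 from their mean. These window differences were not tested (tiles over the same sequence are tested further below), and less of the mark on every allele cannot be told apart from fewer cells carrying it.

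Probe by probe, 64 of the 113 probes of the window with a value on all 4 arrays had both tShh-Vp64 values below both eGFP values, and 6 had both above. Over all probes of the array these shares were 28.1% and 21.8%. The 3 probes with the lowest differences all had strong ratios in eGFP ESCs. Picking probes by their difference favours high eGFP values at the low end and low ones at the high end. Low 1 read 3.29 and 3.94 in eGFP and 1.86 and 2.17 in tShh-Vp64, a difference of -1.60. Low 2 read 3.39 and 3.32 against 2.01 and 1.80, a difference of -1.46, and low 3 read 3.14 and 3.85 against 2.11 and 2.22, a difference of -1.33. Against the enhancer-targeted arrays low 1 and low 2 differed by -0.33 and -0.62. Low 3 differed from them by 0.84, resting on a single value (1.32 on tSBE6-Vp64 R2). High 1 read 0.36 and -0.10 in eGFP and 0.62 and 0.38 in tShh-Vp64, and the other 2 high probes lay below 0 in eGFP; their differences were 0.36, 0.35 and 0.30. These 3 probes thus had little signal in either population.

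Along the gene, the difference from eGFP ESCs covered the block of H3K27me3 rather than a site at the start. In bins of 2 kb, the eGFP signal was a block from 12 kb downstream of the start to 2 kb upstream, with a shoulder upstream of it. Across the 6 bins downstream of the start in this block the differences ranged from -0.71 to -0.27, with a median of -0.50, and in 5 of them both tShh-Vp64 arrays lay below both eGFP arrays. The bin from 8 to 6 kb downstream, inside the gene, had the lowest value, with 1.83 and 1.62 on the eGFP arrays and 1.05 and 0.99 on the tShh-Vp64 arrays. The first bin upstream of the start read 2.01 and 1.58 against 1.36 and 1.36, a difference of -0.43. The next 2 bins differed by -0.08 and -0.36. In the 15 bins beyond, out to 30 kb on either side, no bin had both tShh-Vp64 arrays below both eGFP arrays, 4 had both above, and the median difference was -0.02. Over all 24 bins, 8 were lower and 4 higher by this measure, while over all 2 kb tiles of the array 31.9% were lower and 30.2% higher. Against the mean of tSBE6-Vp64 and tSBE2-Vp64 ESCs the profile was not the same. The 6 bins of the block downstream of the start then ranged from -0.25 to -0.03. The lowest bin lay from 4 to 6 kb upstream, at -0.31.

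**Figure D1:**
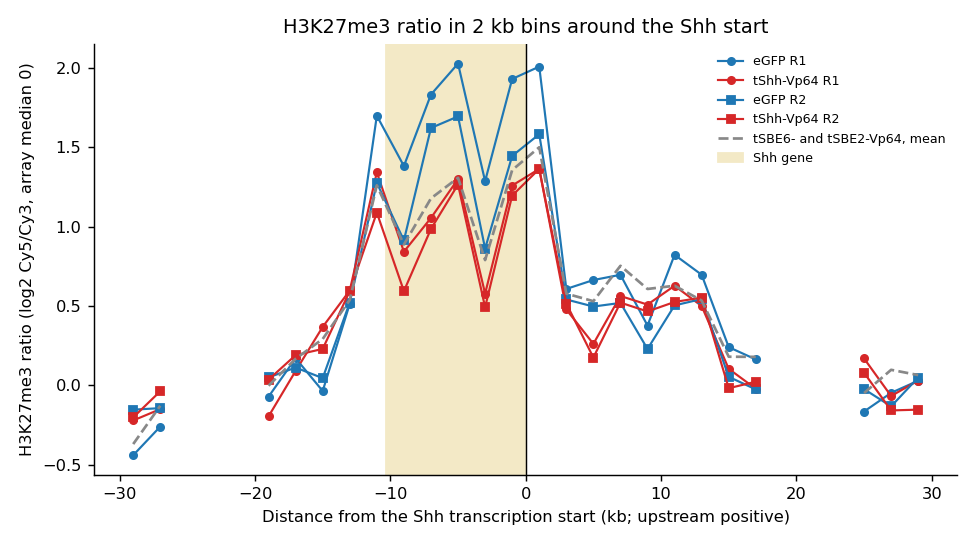
Mean log2 ratio (y axis) in 2 kb bins by distance from the Shh start in kb (x axis, upstream positive) on each eGFP array (blue) and tShh-Vp64 array (red), with the mean of tSBE6-Vp64 and tSBE2-Vp64 ESCs (grey, dashed) and the gene shaded; gaps are untiled. Inside the gene the red lines run below both blue lines, close to the dashed line, and outside 12 kb downstream to 6 kb upstream the lines cross.

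Exons and introns of Shh showed the same direction. The whole gene averaged 1.73 and 1.35 on the eGFP arrays and 1.03 and 0.93 on the tShh-Vp64 arrays, a difference of -0.56 over 129 probes. Exon 2, with only 5 probes, had the lowest value of the gene parts (-0.83), followed by intron 2 (-0.67), exon 1 (-0.61), intron 1 (-0.50) and exon 3 (-0.41), and in each both tShh-Vp64 arrays lay below both eGFP arrays. Upstream of the start the difference was -0.26 over the first 1 kb and -0.25 from 1 to 5 kb. The stretch of 5 kb past the end of the gene read 0.74 and 0.62 in eGFP and 0.76 and 0.64 in tShh-Vp64, so the arrays overlapped there. The level over the gene body was 0.98 in both tShh-Vp64 and tSBE6-Vp64 ESCs and 1.29 in tSBE2-Vp64 ESCs, all below that of eGFP ESCs (1.54).

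The 2 dyes did not contribute equally. With each dye's median set to 0, the Shh promoter window read 1.82 and 1.63 in Cy5 on the eGFP arrays and 1.48 and 1.43 on the tShh-Vp64 arrays, a difference of -0.27. In Cy3 the values were 0.58 and 0.72 against 0.73 and 0.70, which overlapped, with a difference of 0.06. The En2 window split in a like way (-0.27 in Cy5, 0.13 in Cy3), as did Nkx2-2 (-0.27, 0.11) and Six3 (-0.27, 0.13). At Actb the Cy5 arrays differed by -0.03 and the Cy3 arrays by 0.23. Foxa2 (-0.06 in Cy5, 0.14 in Cy3) and Hoxd3 (0.02, 0.15), both with the mark, also differed more in Cy3.

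Around Shh, the other windows fell into those with H3K27me3 signal, which were lower in tShh-Vp64 ESCs, and those without, which apart from Rbm33 were not. The promoter of 9530036O11Rik, a transcript that starts inside the Shh gene at -8.83 kb (negative distances are downstream of the Shh start), shares probes with the Shh window and differed by -0.41. En2, a homeobox gene of the midbrain and hindbrain at -301 kb, read 2.04 and 1.66 on the eGFP arrays and 1.48 and 1.36 on the tShh-Vp64 arrays, a difference of -0.43. Cnpy1, which encodes a modulator of FGF signalling, differed by -0.23 (0.52 and 0.44 against 0.28 and 0.22). Rbm33, a broadly expressed RNA-binding protein gene at -150 kb, was below 0 in both populations and differed by -0.18. On the far side of the regulatory interval, Rnf32 (729 kb upstream), Lmbr1 (911 kb) and Nom1 (968 kb) were below 0 in both populations, and their tShh-Vp64 arrays lay above the eGFP arrays, by 0.11, 0.09 and 0.15. The arrays lay closest at Lmbr1 (-0.48 and -0.33 against -0.31 and -0.32). Of these 8 promoters, 5 were thus lower and 3 higher with no overlap of arrays, against 71.8% lower and 7.06% higher among all 85 tiled promoters.

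The windows for the neural enhancers of Shh carried no H3K27me3 signal above the array median in eGFP ESCs, and the difference was small at each. These windows were centred at the study's rounded distances from Shh, so a window may miss the enhancer itself. SBE6, the enhancer nearest to the gene, read -0.13 and -0.15 in eGFP and -0.12 and -0.16 in tShh-Vp64. At SBE4 the arrays read -0.18 and -0.13 against -0.14 and -0.12. SBE2/3 was higher in tShh-Vp64 (-0.04 and 0.03 against -0.11 and -0.12), and so was NE, a site between Shh and SBE6 that the study picked as a non-enhancer (-0.05 and -0.01 against -0.15 and -0.13). SBE5 read -0.73 and -0.63 against -0.64 and -0.45. The differences at these 5 windows ranged from 0.00 to 0.14. Over the 133 tiles of 5 kb from 10 kb upstream of Shh to Rnf32, the median difference was 0.04.

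**Figure D2:**
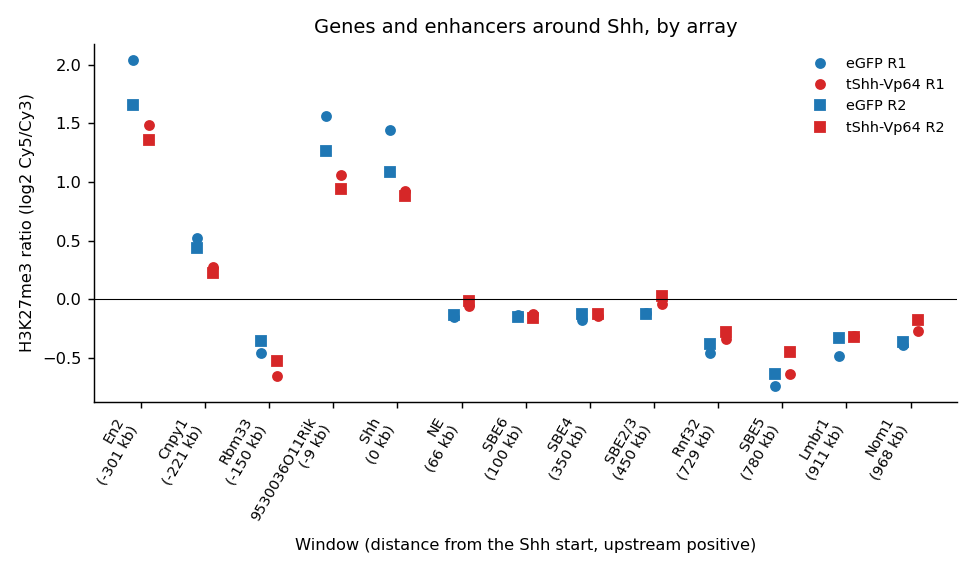
Mean log2 ratio (y axis) of each eGFP (blue) and tShh-Vp64 (red) array in windows at genes (within 5 kb of the start) and enhancers (within 10 kb), ordered by distance from the Shh start (x axis, upstream positive). The red points lie below the blue ones at En2, Cnpy1, Rbm33, 9530036O11Rik and Shh, above them at NE, SBE2/3, Rnf32, Lmbr1 and Nom1, and overlap them at SBE6, SBE4 and SBE5.

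Set against the rest of the array, the lower signal at Shh was not alone. Probes were averaged in tiles of 5 kb, which gave 963 tiles over 39 tiled regions. By limma on 4 populations of the slide, with the spread taken from the 2 enhancer-targeted ones (1 residual degree of freedom), 0 of 963 tiles (0%) passed an adjusted p of 0.05, and 60 had an unadjusted p under 0.05, 12 higher and 48 lower. Treating the 8 arrays as separate samples gave 241 tiles, 15.5% of all lower and 9.55% higher, the tile inside Shh among the lower ones (adjusted p = 0.012 by limma), but that p measures only the spread between arrays of a sample. In the fit on populations every tile had the same standard error, 0.2, whatever its number of probes. Simulated tiles all had the same noise, pooled from the enhancer-targeted pair, with 100 of 963 shifted and no allowance for the number of probes. On them the fit on populations recovered 16% of those shifted by 0.5 and 86% of those shifted by 1. A tile that did not pass may thus still differ by this much. Of the Shh tiles, the one inside the gene (chr5:28785001-28790000) read 1.90 and 1.62 in eGFP and 1.18 and 1.08 in tShh-Vp64. Its difference of -0.63 was the 3rd lowest of all tiles, with limma adjusted p = 0.548. The tile with the start (chr5:28790001-28795000), which also holds the start of Gm17493, differed by -0.47, the 19th lowest (limma adjusted p = 0.699), and the tiles on either side of this pair by -0.17 and -0.25.

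Tiles in which the arrays did not overlap were common in both directions, 31.7% lower and 32.2% higher. Those that also differed by at least 0.5 were 10, or 1.04%, all lower in tShh-Vp64, and 0 higher. The split changed with the processing. With each array divided by its slope, described below, 3 were lower and 2 higher. After loess and scaling 5 were lower and 0 higher, and with normexp background correction 6 were lower and 0 higher. Of these 10, 1 was the tile inside the Shh gene, and 7 had an H3K27me3 level of at least 1 in the enhancer-targeted populations. The lowest outside Shh, at Fbxl18 (chr5:143655001-143660000, difference -0.81, limma adjusted p = 0.0512), rested on 5 probes and on eGFP arrays that disagreed (-0.67 and 0.25). The next was at Pax6, the eye and neural tube regulator (chr2:105510001-105515000). It read 2.18 and 1.81 in eGFP and 1.40 and 1.24 in tShh-Vp64, a difference of -0.68. Fgf15, a secreted growth factor (chr7:152080001-152085000), differed by -0.57. Evx2, a homeobox gene at the end of the Hoxd cluster (chr2:74495001-74500000), differed by -0.57, and the neural progenitor filament gene Nes (chr3:87780001-87785000) by -0.56. The remaining 4 tiles lay at Nkx2-2, near Nkx6-1, and, in the Hoxd cluster, at Hoxd9 and at Hoxd11 with Hoxd12. In all 10, tShh-Vp64 was also below the mean of the enhancer-targeted populations, by less, with differences from -0.39 to -0.07. These tiles were chosen for low tShh-Vp64 values, which this comparison reuses, so it is no separate check.

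Of the 5 tiles with the largest higher values, 4 were at or below 0 in eGFP ESCs. An intron of Npas3 (chr12:54995001-55000000) read -0.41 and -0.25 in eGFP and 0.10 and 0.16 in tShh-Vp64, a difference of 0.46. The others lay in Sox6 (chr7:122940001-122945000, 0.46) and near it (chr7:123185001-123190000, 0.45), in Gm17419 (chr13:29035001-29040000, 0.46), and in Nom1 (chr5:29780001-29785000, 0.45). The one near Sox6 was the exception, at 0.54 and 0.67 in eGFP and 0.95 and 1.16 in tShh-Vp64. None passed the limma test (adjusted p = 0.699 for each).

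The H3K27me3-rich loci as a class were lower in tShh-Vp64 than in eGFP ESCs. High tiles were defined by a mean of at least 1 in tSBE6-Vp64 and tSBE2-Vp64 ESCs, which are outside the comparison. Outside the Shh regulatory domain there were 96, with a median level of 1.91 and 1.61 on the eGFP arrays and 1.45 and 1.39 on the tShh-Vp64 arrays. Their differences had a median of -0.35, or -0.18 without eGFP R1, and 87 of the 96 (90.6%) were below 0, against a median of 0.01 over all tiles. Both tShh-Vp64 arrays lay below both eGFP arrays in 75% of them. The 2 high tiles at Shh, at -0.63 and -0.47, were the 2nd and the 13th lowest of all 98 high tiles. Against the mean of the enhancer-targeted populations instead of eGFP, the same 2 tiles were at -0.12 and -0.18, ranks 27 and 9 of 98, and the 96 tiles had a median of -0.06. eGFP was the highest of the 4 populations in 81 of the 96 high tiles (84.4%), against 31.9% of all 963 tiles. tShh-Vp64 was the lowest in 47 of the 96 (49.0%), against 21.2% of all tiles.

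Across all tiles, the slope of tShh-Vp64 on eGFP was 0.833, and 0.834 without the Shh domain. This was no lower than the slope between the 2 eGFP arrays, 0.819 for R2 on R1, and below that between the 2 tShh-Vp64 arrays, 0.914. On the mean of the enhancer-targeted populations, the slopes of single arrays were 1.18 and 0.969 for eGFP R1 and R2, and 0.961 and 0.888 for tShh-Vp64 R1 and R2. With each array divided by this slope, the Shh promoter window differed by -0.19, the median of the 96 high tiles was -0.10, and the Shh tile inside the gene (-0.42) and the tile with the start (-0.28) ranked 2nd and 5th lowest of the 98 high tiles. The sign at Shh was thus the same after rescaling and the difference smaller.

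**Figure D3:**
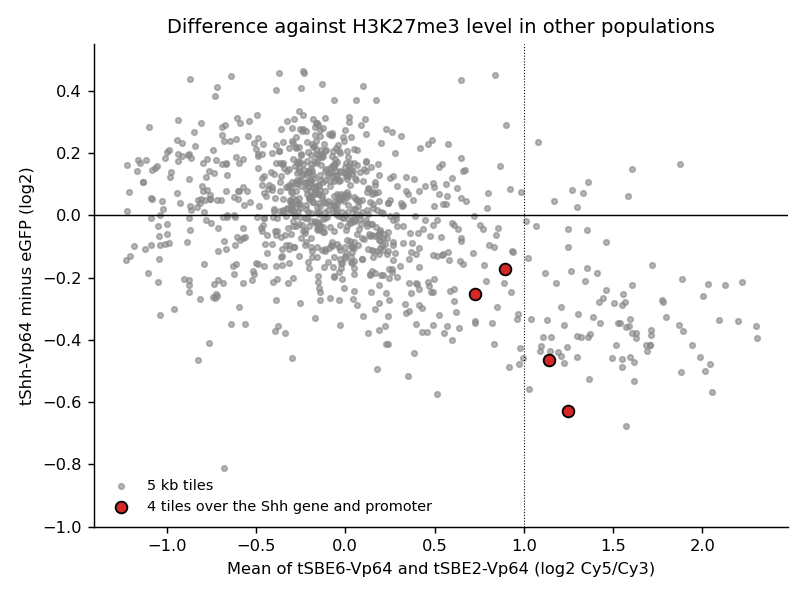
Each grey point is a 5 kb tile, with the mean log2 ratio of tSBE6-Vp64 and tSBE2-Vp64 ESCs on the x axis and the tShh-Vp64 minus eGFP difference (log2) on the y axis; red points are the 4 tiles over the Shh gene and promoter, and the dotted line marks the level of 1. To the right of it 90.8% of the 98 tiles lie below 0, and the 2 Shh tiles there, at -0.63 and -0.47, are in the lower part of the cloud.

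Promoters gave the same picture by gene. The Shh window was the 17th lowest of 85 tiled promoters by its difference and the 35th highest by its eGFP level. Of the 12 listed hedgehog pathway genes and targets, 5 were tiled, and all 5 were lower in tShh-Vp64, 4 without overlap. Among all 85 tiled promoters 72 were below 0 and 71.8% were lower without overlap, as were 30 of the 36 with a level of at least 1, so this count was near the background, as were those of the lists that follow. Ptch1, the receptor of Sonic hedgehog and itself a target of the pathway, read 1.66 and 1.46 in eGFP and 1.23 and 1.16 in tShh-Vp64, a difference of -0.37, close to that of Shh. Nkx2-2, Nkx6-1 and Olig2, which encode transcription factors of ventral neural progenitors, differed by -0.41, -0.39 and -0.36. Foxa2, a floor plate factor, differed by -0.23, and its arrays overlapped (1.94 and 1.52 against 1.54 and 1.45). The median of this list was -0.37, against -0.23 over all 85 tiled promoters and -0.35 over the 36 with a level of at least 1.

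Neural development genes and the Hoxd cluster were mostly lower too. Of the 10 tiled neural genes, 9 were below 0 and 8 were lower without overlap, against 72 and 61 of all 85 tiled promoters. Pax6 (-0.55), En2 (-0.43) and Six3 (-0.42) were the lowest, and Sox4, with a low level, was at 0.05. All 10 promoters of the Hoxd cluster and Evx2 were below 0, with a median of -0.27, but only 6 of them did not overlap. These included Hoxd11 (-0.44) and Hoxd12 (-0.36), which act in limb and axial patterning. At Hoxd3 (-0.16) and Hoxd4 (-0.16) the arrays overlapped. After rescaling, 5 of the 10 were below 0, with a median of 0.00, whereas Shh was at -0.19 and Pax6 at -0.30.

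Several promoters without the mark were also lower. The pluripotency genes, 6 of 8 tiled, were all below 0, and 5 did not overlap (against 71.8% of the 85 tiled promoters), led by Myc (-0.10 and -0.12 in eGFP, -0.51 and -0.52 in tShh-Vp64). Pou5f1, Klf4 and Fgf4 differed by -0.11, -0.18 and -0.13. Actb and Gapdh, active in all cells, differed by -0.29 and -0.28 (-0.37 after rescaling for Actb and -0.38 for Gapdh). The imprinted genes H19 and Igf2, the latter with the mark (1.02 in tShh-Vp64), differed by -0.06 and -0.18, both without overlap. Over the 31 tiled promoters at or below 0 in the enhancer-targeted populations, 19 were lower and 6 higher without overlap, with a median of -0.12; Rnf32, Lmbr1 and Nom1 were among the 6. Over the 388 tiles at or below 0 outside the Shh domain the median was 0.05.

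**Figure D4:**
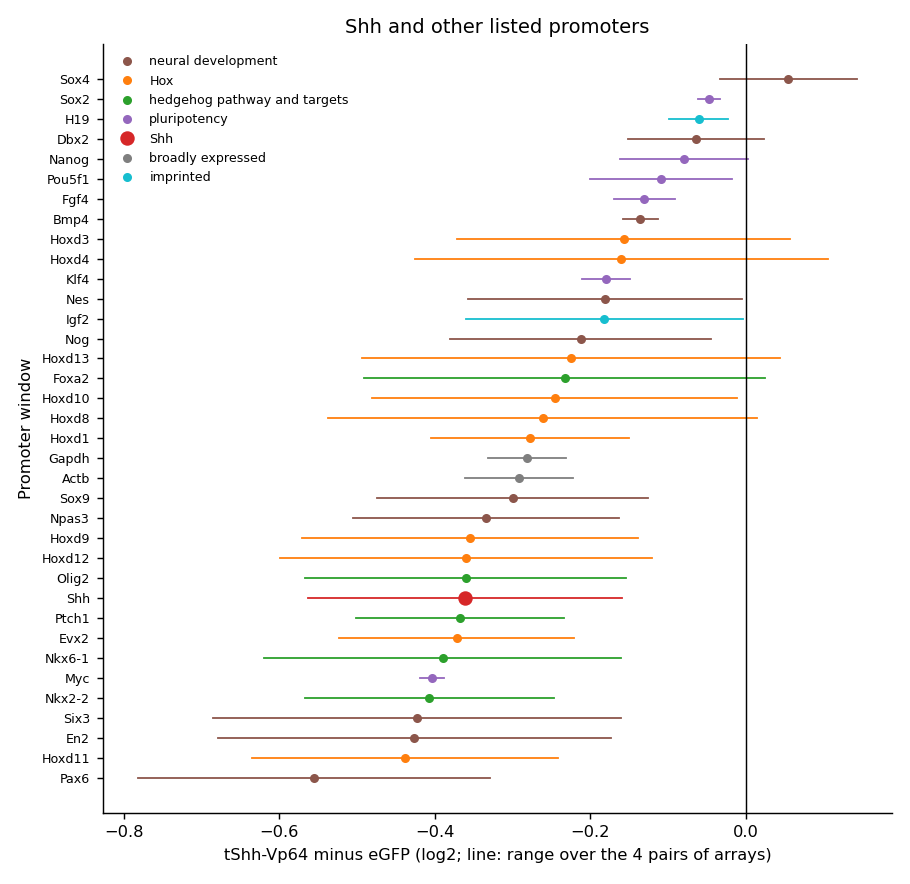
Difference of tShh-Vp64 and eGFP ESCs (x axis, log2) at the promoter windows of Shh and of the listed genes (y axis), coloured by list; a point is the difference of the means and a line spans the 4 pairs of single arrays. Shh (-0.36) lies among Ptch1 (-0.37), Olig2 (-0.36), Evx2 (-0.37) and Hoxd12 (-0.36), and its line (-0.56 to -0.16) overlaps those of most other genes.

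The base composition of the probes moved with the difference over the whole array. In 5 classes of GC content, the median difference went from 0.10 in probes of 16.7% to 38.3% GC to -0.20 in those of 55% to 85%. Within tiles at or below 0 it went from 0.14 to -0.15, while within high tiles it lay between -0.36 and -0.30 in every class. The Shh promoter window had a median of 51.7% GC, against 46.7% over all probes. With each array centred within 10 classes of GC content, Shh differed by -0.29, Ptch1 by -0.35 and the 96 high tiles by a median of -0.29. Several promoters with little or none of the mark moved closer to 0. Pou5f1 was at -0.03, Fgf4 at -0.05, Klf4 at -0.10, Actb and Gapdh at -0.20, Myc at -0.33 and H19 at 0.00. Others moved further from it, with Nanog going from -0.08 to -0.09, Rbm33 from -0.18 to -0.21 and Sox4 from 0.05 to 0.11. With this and the rescaling together, Shh was at -0.17.

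**Figure D5:**
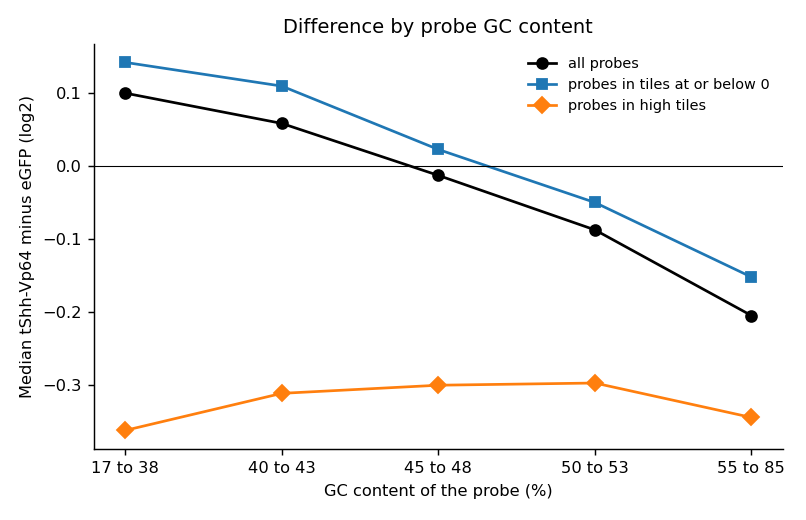
Median tShh-Vp64 minus eGFP difference (y axis, log2) over probes in 5 classes of GC content (x axis, in percent) for all probes (black), those in 5 kb tiles at or below 0 (blue) and those in high tiles (orange). The black and blue lines go from above to below 0 as GC content rises (0.10 to -0.20 and 0.14 to -0.15), and the orange line lies between -0.36 and -0.30 throughout.

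By tiled region, 22 of 39 had both tShh-Vp64 arrays below both eGFP arrays (56.4%) and 4 had both above. The region with Shh, 260 tiles from En2 to Mnx1, averaged 0.02, and its 9 high tiles, at En2, Shh and Mnx1, were all below 0, with a median of -0.39. All 18 regions with high tiles had a median below 0 over them, among them Pax6 (-0.45), Nkx2-2 (-0.40), Ptch1 (-0.39), Olig2 (-0.38), Six3 (-0.37) and the Hoxd cluster (-0.33). The lowest region means were at Nes (-0.30) and at Actb and Fbxl18 (-0.27), and the highest at Sox6 (0.14).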

How the data were processed

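The authors scanned custom Agilent arrays (mm9 probe positions) and deposited, per the file headers, spot intensity values from Agilent Feature Extraction 11.5.1.1 for each dye. They also deposited 1 table of normalized log2 ratios with R1 and R2 combined, made with limma per the labels' processing notes; its normalization is not given in the sources used here, its column medians were -0.13 (eGFP) and -0.11 (tShh-Vp64), and it was used as an alternative. The paper's methods do not describe these arrays. Processed signals differed from background-subtracted ones, by an adjustment not identified here. Probes marked as outliers in either dye were left out, 328 to 1049 of 48316 on the 4 arrays. The log2 Cy5 over Cy3 ratio was centred on each array's median and averaged per array over 5 kb tiles with at least 5 probes, windows and 2 kb bins with at least 3 probes; the number of arrays limits the precision.

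R1 and R2 were averaged to 1 sample. Tiles were tested with limma 3.58.1 (lmFit, eBayes, Benjamini-Hochberg) in R 4.3.3 on eGFP, tShh-Vp64 and the enhancer-targeted tSBE6-Vp64 and tSBE2-Vp64, the lone samples being assumed to vary like the last pair; the script was tested on simulated data. limma's moderation pooled the spread over all tiles, so each tile had the same standard error, 0.2. Windows have no test. Genes are from GENCODE and sequences from the mm9 reference. Named were Shh, its domain genes and enhancers, listed promoters that are tiled, and, among tiles without overlap, the 5 furthest above and the 5 furthest below 0, adjoining tiles counted once and Shh promoter tiles left out. Members and lists were chosen with earlier results of these data known. Of 48 listed promoters, 35 had at least 5 probes; the other 13 were not analysed here. Alternatives covered normalization, background, probe filters, tile and window sizes, thresholds, arrays left out, rescaling, the control population and GC content.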

Additional observations from a re-analysis of the deposited data

How the results depend on the processing

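The Shh promoter window stayed below 0 under all 18 alternatives, from -0.54 to -0.11. The sign was fixed in advance for those leaving arrays out, since both tShh-Vp64 arrays lay below both eGFP arrays. The value of -0.11 was against the mean of tSBE6-Vp64 and tSBE2-Vp64 (chosen after seeing the data, as was the GC centring). The median of other listed promoters (-0.26) was -0.10 in the authors' deposited table, -0.105 with arrays rescaled and -0.0634 against the enhancer-targeted mean, and leaving out arrays gave -0.41 to -0.16. The high-tile median (-0.35) was -0.16 after loess and scaling, -0.16 in the authors' table, -0.095 rescaled and -0.0594 against the enhancer-targeted mean. The slope (0.833) was 0.95 with loess. It was 0.967 rescaled, where dividing each array by its slope brings this value near 1 by design. The median over the 13 windows at Shh and its flanks was 0.02, with 5 of the windows lower and 5 higher without overlap. This median was 0.054 in the authors' table, -0.0113 with probes above background in Cy3 and -0.0206 in Cy5. It was -0.0106 at narrower windows and -0.0434 as a median over probes. The median of 2 kb bins was -0.159 to -0.0258 with arrays left out.

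Tiles past an adjusted p of 0.05 by limma numbered 0; 1 with loess and scale, 3 with no probe minimum, 1 rescaled, 0 to 6 with arrays left out (6 without eGFP R2, 2 without tShh-Vp64 R2), and, with arrays as separate samples, 241 without and 214 with the array number as a replicate block. Deviations of R1 correlated at 0.428 between eGFP and tShh-Vp64, and from -0.251 to 0.172 between the other pairs of populations. R1 arrays lay in row 1 of the slide and R2 arrays in row 2. Tiles without overlap and at least 0.5 apart numbered 10; 5 with loess, 6 with normexp, 0 with the deposited ratios (size alone), 97 at 2 kb (69 lower, 28 higher), 2 at 10 kb, 5 rescaled (3 lower, 2 higher), 196 at a threshold of 0.25 (132 lower, 64 higher), 0 at 1, 615 at any size, and 4 to 66 with arrays left out (4 without eGFP R1, 66 without eGFP R2, 48 without R2 of both, 25 without tShh-Vp64 R1). The cause of these changes was not tested. Normexp used median signals. With 1 sample a population, differences between populations and between immunoprecipitations cannot be told apart.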
